A study of Mus musculus with 12 samples.

Results

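The JmjC histone lysine demethylases are enzymes that take methyl groups off the tails of histones, and 10 of their genes, picked by gene name from a table of 56350 genes, were followed here: Kdm2a, Kdm2b, Kdm3a, Kdm3b, Kdm4a, Kdm4b, Kdm4c, Kdm5b, Kdm6b and Kdm7a. Their catalytic JmjC domain holds iron and spends molecular oxygen and 2-oxoglutarate for each methyl group removed. That chemistry is shared with the prolyl hydroxylases that mark HIF (hypoxia-inducible factor) subunits for destruction, and Kdm3a and Kdm4b are known in other cells as genes that HIF switches on. Each subfamily has its own marks: KDM2 enzymes act on dimethylated lysine 36 of histone H3 (H3K36), KDM3 enzymes on mono- and dimethylated H3K9, KDM4 enzymes on trimethylated H3K9 and H3K36, KDM5 enzymes on trimethylated H3K4, KDM6 enzymes on trimethylated H3K27, and KDM7 enzymes on dimethylated H3K9 and H3K27. In mesenchymal progenitors these marks are known to be rewritten as cells take up the bone or fat fate.

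RNAseq was done on 12 libraries of MPC2, a mouse mesenchymal progenitor line that is conditionally immortalized and is 1 clone, with 3 libraries in each of 4 conditions. Undifferentiated MSCs were grown at 33 °C, and osteocytes were the same cells kept for 3 weeks at 37 °C with beta-glycerophosphate and ascorbic acid. Each cell type received vehicle (DMSO) or 50 µM FG-4592 (Roxadustat), a HIF prolyl hydroxylase inhibitor (HIF-PHI) used to mimic hypoxia, for 48 hours. Temperature and media changed together with differentiation, so that their parts cannot be told apart from it. The labels do not say whether the 3 libraries of a condition came from separate cultures, and the p-values measure the spread between these libraries, which may be technical.

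Library totals ran from 52829185 to 68108470 counts, and a member had between 1557 counts (Kdm6b, a vehicle-treated MSC library) and 20232 counts (Kdm2a, an FG-4592-treated osteocyte library). The totals exceed the reads per library that the labels state, and the reason for that was not tested. All 10 members passed the filter of more than 10 counts in at least 3 libraries, as did 16484 genes in all. Levels are given in CPM, the counts of a gene relative to the TMM-normalised total of its library. Differences are log2 fold changes from edgeR's quasi-likelihood test with their standard error (SE) and FDR, the Benjamini-Hochberg adjusted p over all genes tested, and a member was called at an FDR under 0.05. Slc2a1, the glucose transporter that HIF induces, checked the action of the drug: it stood between 22.0 and 23.5 CPM in vehicle-treated MSCs and between 229.2 and 238.0 CPM after FG-4592, and it went from between 13.1 and 15.8 to between 165.2 and 169.6 CPM in osteocytes. The osteoblast lineage markers had over 10 counts in every library for 7 of 8 genes in MSCs and for 8 of 8 in osteocytes. Of the 6 osteocyte markers, Dmp1 and Phex had between 561 and 907 and between 2817 and 4181 counts in vehicle-treated osteocytes, while Sost was at 0 in all 12 libraries, Mepe was at 0 in every osteocyte library, and neither of the 2 entries named Pdpn passed 1 count. These markers also moved with FG-4592: in treated osteocytes Dmp1 had 85 to 157 counts and Phex 125 to 231, while Fgf23 had 0 to 5 counts in vehicle-treated osteocytes and 79 to 125 in treated ones. Of the 8 osteoblast lineage genes, 4 were lower and 1 higher with FG-4592 in MSCs, and 6 were lower in osteocytes. Ibsp stood between 3517 and 3549 counts in vehicle-treated MSCs and between 181 and 255 after FG-4592, and in osteocytes it stood between 1973 and 2470 counts in vehicle and between 483 and 1054 after FG-4592. The part of these changes in the responses of the members was not tested.

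The 10 genes lie on 8 chromosomes, given here in mm10. Kdm2a is at chr19:4314419-4398285, Kdm2b at chr5:122870665-122989823, Kdm3a at chr6:71588972-71632990, Kdm4a at chr4:118136957-118180043, Kdm6b at chr11:69398508-69413675 and Kdm7a at chr6:39136623-39206789, all on the minus strand. Kdm3b is at chr18:34777047-34838660, Kdm4b at chr17:56326062-56402870, Kdm4c at chr4:74242497-74405860 and Kdm5b at chr1:134560171-134635285, on the plus strand. All are protein coding. The counting options that the paper lists let a read pair count for every gene that it overlapped, and none of them sets a strand. Overlapping genes would then share counts, but the deposited counts do not show this throughout. The noncoding gene Gm26538, on the opposite strand, shares 3468 exonic bases with Kdm3b. It had at most 1 count in a library, where Kdm3b had at least 5061. How far overlapping genes share counts was not tested. Kdm2b shared 950 exonic bases (8.74% of its exons), of which 627 lay in Rnf34, a ubiquitin ligase gene on the opposite strand with 1447 to 2433 counts. At its highest Rnf34 had 87.0% as many counts as Kdm2b in the same library, and 1 stretch of 615 bases of Kdm2b matched Gm12397 at 98% identity or more, so the values of Kdm2b are uncertain. The genes that overlap Kdm3b, Kdm6b and Kdm7a had at most 1, 3 and 25 counts in a library, and the other 6 members share no exonic base.

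Levels of different genes were set side by side per kilobase of each gene's summed exons, a length that need not be that of the transcripts present, and the order of the genes rests on it: before the division Kdm4a stood at 111.8 and Kdm2a at 152.6 CPM in vehicle-treated MSCs. On this scale Kdm4a was the highest member in vehicle-treated MSCs with 19.3 ± 0.34 CPM per kb (SD, n = 3) and Kdm2b the lowest with 3.22 ± 0.085. Kdm2a and Kdm4b followed Kdm4a at 10.6 ± 0.27 and 9.95 ± 0.57 CPM per kb. The remaining 6 members lay between 4.53 and 6.95 CPM per kb, from Kdm6b to Kdm3b. FG-4592 reordered them: Kdm4b led at 25.2 ± 1.5 CPM per kb in treated MSCs and at 32.8 ± 0.84 in treated osteocytes, Kdm2a came second in both, and Kdm3a moved from the 7th place to the 3rd in MSCs and from the 9th to the 4th in osteocytes. Kdm2b stayed last in all 4 conditions. Summed over the 10 members, the level was 79.2 ± 1.2 CPM per kb in vehicle-treated MSCs and 114.6 ± 0.98 after FG-4592, and 84.9 ± 1.8 and 131.3 ± 3.1 in osteocytes.

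**Figure D1:**
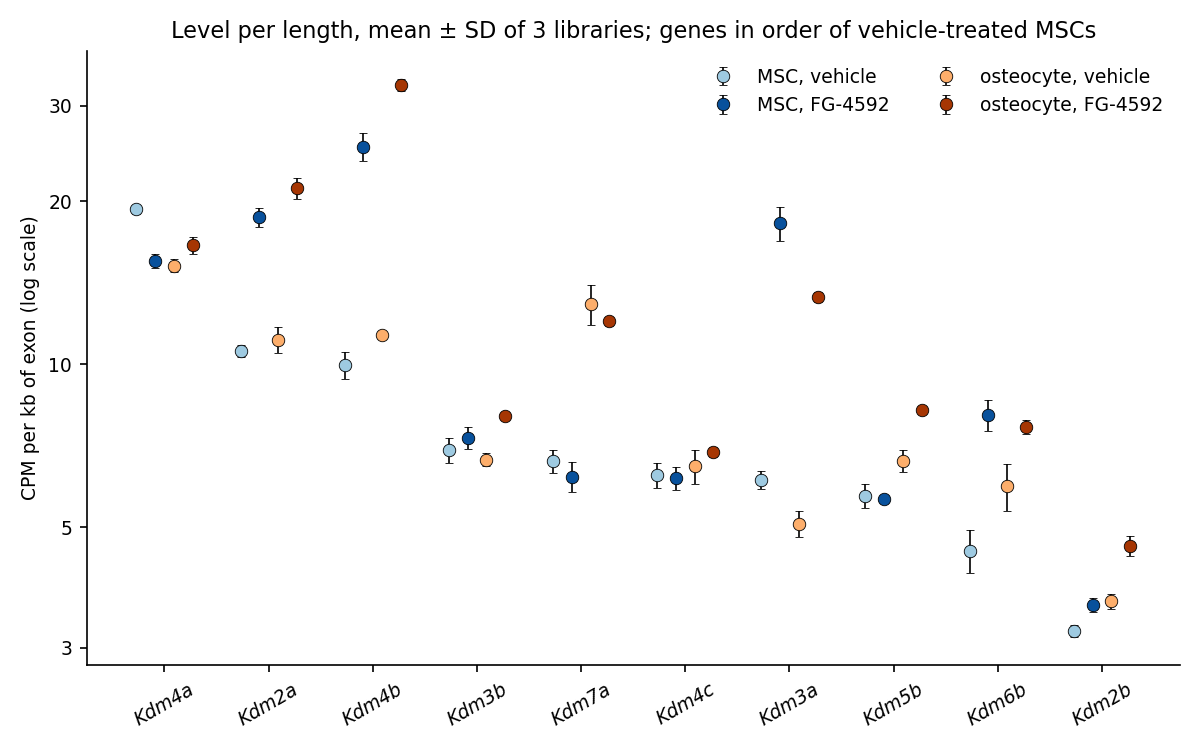
Levels of the 10 members in CPM per kb of exon on a log axis, as mean ± SD of 3 libraries, with 1 colour for each of the 4 conditions and genes ordered by their level in vehicle-treated MSCs. Kdm4a led in both vehicle conditions (19.3 and 15.2 CPM per kb) and Kdm4b in both FG-4592 conditions (25.2 and 32.8).

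The first question was what FG-4592 did to these genes in each cell type. In MSCs, 5 of the 10 members rose and 1 fell, where 17.6% of all genes tested rose and 20.4% fell. In osteocytes 8 of 10 rose, where 21.9% of all genes rose and 22.0% fell, and the count of members that fell was 0 by edgeR's quasi-likelihood test, 0 at an unadjusted p under 0.05 and 0 by DESeq2. Over the alternative settings of the fit, 4 or 5 members rose in MSCs and 7 or 8 in osteocytes. Kdm3a and Kdm4b also passed an absolute log2 fold change of 1 in both cell types, which 9.29% of all genes did in MSCs and 10.5% in osteocytes in either direction. The median log2 fold change of the members was 0.12 in MSCs and 0.33 in osteocytes, against -0.05 and 0.00 over all genes. Libraries of vehicle and FG-4592 did not overlap for 6 members in MSCs (50.5% of all genes) and for 8 in osteocytes (51.8%). In whole cultures, a change in the share of some cells and a change of RNA per cell cannot be told apart.

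**Figure D2:**
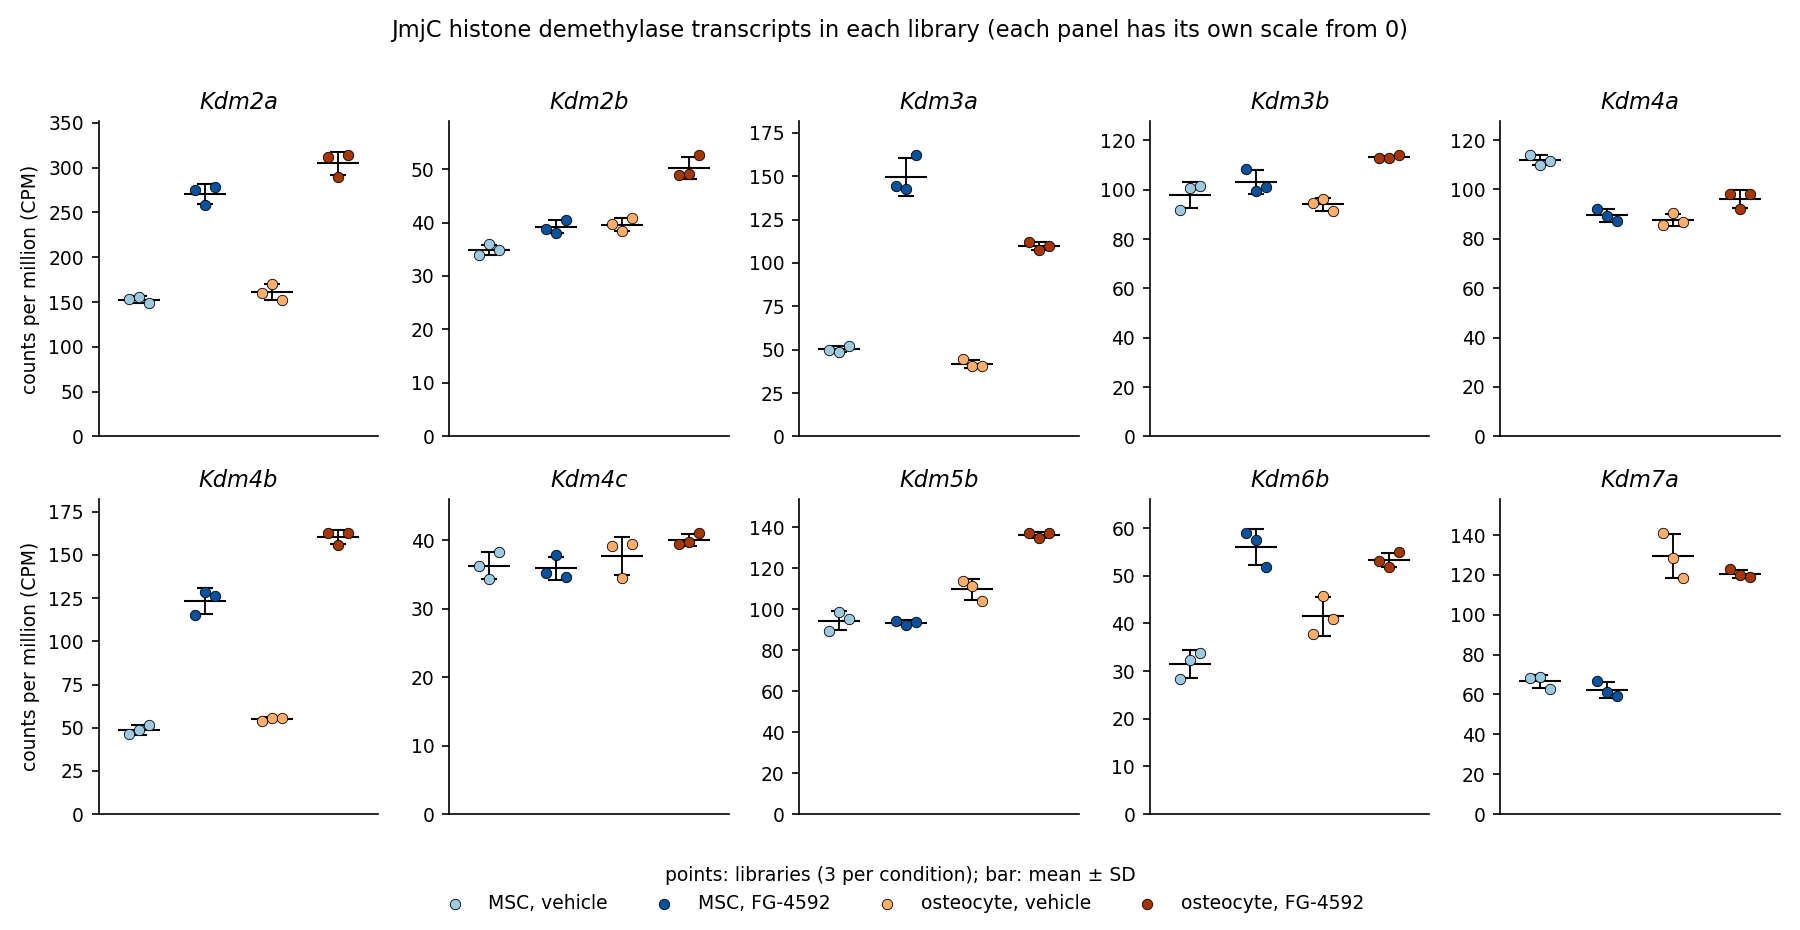
CPM of each member in each library (points), with the mean ± SD of the 3 libraries of a condition (bars). Every panel has its own scale from 0. The FG-4592 libraries of Kdm2a, Kdm3a and Kdm4b lie apart from the vehicle libraries in both cell types, and those of Kdm7a lie by cell type.

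Kdm3a, the H3K9 demethylase best known as a HIF target, had the largest rise of the 10 in MSCs. It stood at 49.6, 48.9 and 52.4 CPM in vehicle-treated MSCs and at 144.6, 142.4 and 162.2 CPM after FG-4592. In osteocytes it went from 44.5, 40.3 and 40.6 CPM to 111.9, 107.2 and 109.7 CPM. Both pairs of conditions were apart by far more than the spread of their libraries, and all 3 treated MSC libraries lay above all 3 treated osteocyte libraries. The log2 fold change was 1.57 (SE 0.0593, FDR 4.45e-12) in MSCs and 1.39 (SE 0.0594, FDR 1.58e-11) in osteocytes by edgeR's quasi-likelihood test. Kdm3b, its paralogue with the same substrate, stood at 91.9, 100.8 and 101.3 CPM in vehicle-treated MSCs and at 108.5, 99.4 and 101.1 CPM after FG-4592, with overlapping libraries and a log2 fold change of 0.07 (95% confidence interval -0.04 to 0.18). In osteocytes Kdm3b went from 94.5, 96.4 and 91.2 CPM to 113.0, 113.0 and 114.0 CPM without overlap, a log2 fold change of 0.27 (SE 0.0509, FDR 0.000397). With library size alone in place of TMM factors that value was 0.17, still past the threshold. Per length, Kdm3a made up 45.4% to 48.0% of the summed CPM per kb of Kdm3a and Kdm3b in vehicle-treated MSCs and 69.5% to 73.3% after FG-4592, and 41.7% to 44.6% and 61.9% to 62.9% in osteocytes.

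Promoters are shown for the short DNA motif that HIF binds, for Kdm3a, for Kdm4a, which fell in MSCs, and for Kdm7a, which was called in neither cell type with FG-4592. RefSeq's promoter table for GRCm38.p6 held 6 of the 10 members (Kdm2b, Kdm3a, Kdm4a, Kdm4c, Kdm5b and Kdm7a) with 12 start sites, and the 250 bases before each start were searched for ACGTG or GCGTG on either strand. A match was found before 8 of the 12 starts and in 5 of the 6 genes, Kdm4a being the gene without one. The motif is common: 38.6% of all 32851 promoters and 53.8% of those of the genes tested held it. Kdm3a had 1 match, beginning 27 bases before the outermost of its 3 starts, but inside the annotated gene, whose own start in mm10 lies farther upstream at base 71632990, and the match lies in the exon at chr6:71632838-71632990 of the annotation in the counts table. Only 30 bases around it are given. Kdm7a had 2 matches, beginning 246 and 139 bases before its RefSeq start at base 39206773. That start lies inside the annotated gene, which begins at base 39206789, and the bases between are not printed, so the distances do not count from the end of the printed stretch. Kdm4c had 6 overlapping or neighbouring matches before 1 of its 2 starts. A match describes letters, not binding. Sequences run 5′ to 3′ along the minus strand with the matches in capitals, and they are Kdm3a chr6:71632928-71632957, Kdm4a chr4:118180044-118180293 and Kdm7a chr6:39206790-39207023.
Kdm3a: tccgggaggctgtGCGTGtcttgtgagaga
Kdm4a: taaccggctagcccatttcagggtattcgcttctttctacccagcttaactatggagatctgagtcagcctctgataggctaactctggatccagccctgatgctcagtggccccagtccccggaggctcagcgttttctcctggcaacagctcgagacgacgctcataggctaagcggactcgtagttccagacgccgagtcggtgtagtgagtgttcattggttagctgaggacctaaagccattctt
Kdm7a: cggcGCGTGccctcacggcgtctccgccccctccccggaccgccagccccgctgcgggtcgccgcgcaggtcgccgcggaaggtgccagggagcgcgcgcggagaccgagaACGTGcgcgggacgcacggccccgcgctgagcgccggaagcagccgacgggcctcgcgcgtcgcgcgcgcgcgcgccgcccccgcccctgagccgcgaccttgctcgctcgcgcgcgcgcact

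The KDM4 trio, which acts on trimethylated H3K9 and H3K36, split into a member that rose, a member that differed in direction and a member that stayed within its spread. Kdm4b stood at 46.1, 48.4 and 51.6 CPM in vehicle-treated MSCs and at 115.1, 128.7 and 126.5 CPM after FG-4592. In osteocytes it went from 54.1, 55.8 and 55.4 CPM to 162.8, 155.7 and 162.8 CPM. The treated libraries lay above 2 times the highest vehicle library in each cell type, with log2 fold changes of 1.34 (SE 0.0551, FDR 1.31e-11) in MSCs and 1.54 (SE 0.0552, FDR 1.68e-12) in osteocytes by edgeR's quasi-likelihood test. Kdm4a went from 113.9, 109.9 and 111.7 CPM to 92.2, 89.2 and 87.1 CPM in MSCs, and from 85.6, 90.5 and 87.0 CPM to 98.0, 92.0 and 98.2 CPM in osteocytes. Kdm4a fell in MSCs without overlap between its libraries, by 0.32 on the log2 scale (SE 0.0461, FDR 3.62e-05 by edgeR's quasi-likelihood test). The rise in osteocytes was small, at 0.13 (SE 0.0462, FDR 0.0292 by edgeR's quasi-likelihood test), and it lost the threshold in 12 of 21 alternative settings (FDR 0.0143 to 0.604), among them the removal of any of 7 libraries: replicates 1 and 3 of the FG-4592-treated osteocytes (log2 fold changes 0.12 and 0.12), replicates 1 and 3 of the vehicle-treated osteocytes (0.10 and 0.12), and each of the 3 vehicle-treated MSC libraries (0.11, 0.11 and 0.11). Kdm4c stood at 36.3, 34.3 and 38.3 CPM in vehicle-treated MSCs and 35.2, 37.8 and 34.6 CPM after FG-4592, and at 39.2, 34.5 and 39.5 CPM against 39.5, 39.8 and 41.1 CPM in osteocytes. Its libraries overlapped in both cell types, with intervals of -0.16 to 0.12 in MSCs and -0.05 to 0.23 in osteocytes for the log2 fold change.

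Within the trio the gene with the highest level per kb changed. Per length, Kdm4a made up 54.5% ± 1.4 of the summed CPM per kb of the 3 genes in vehicle-treated MSCs (SD, n = 3) and 33.1% ± 1.7 after FG-4592, while Kdm4b went from 28.0% ± 1.2 to 53.8% ± 1.9. In osteocytes Kdm4a went from 46.1% ± 1.2 to 29.5% ± 0.30 and Kdm4b from 34.2% ± 0.35 to 58.2% ± 0.17. Kdm4c, which was called in neither cell type, went from 17.5% to 13.1% in MSCs and from 19.7% to 12.2% in osteocytes, while the sum of the 3 went from 35.5 to 46.9 and from 32.9 to 56.3 CPM per kb. These shares are descriptions, and no test was run on them.

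**Figure D3:**
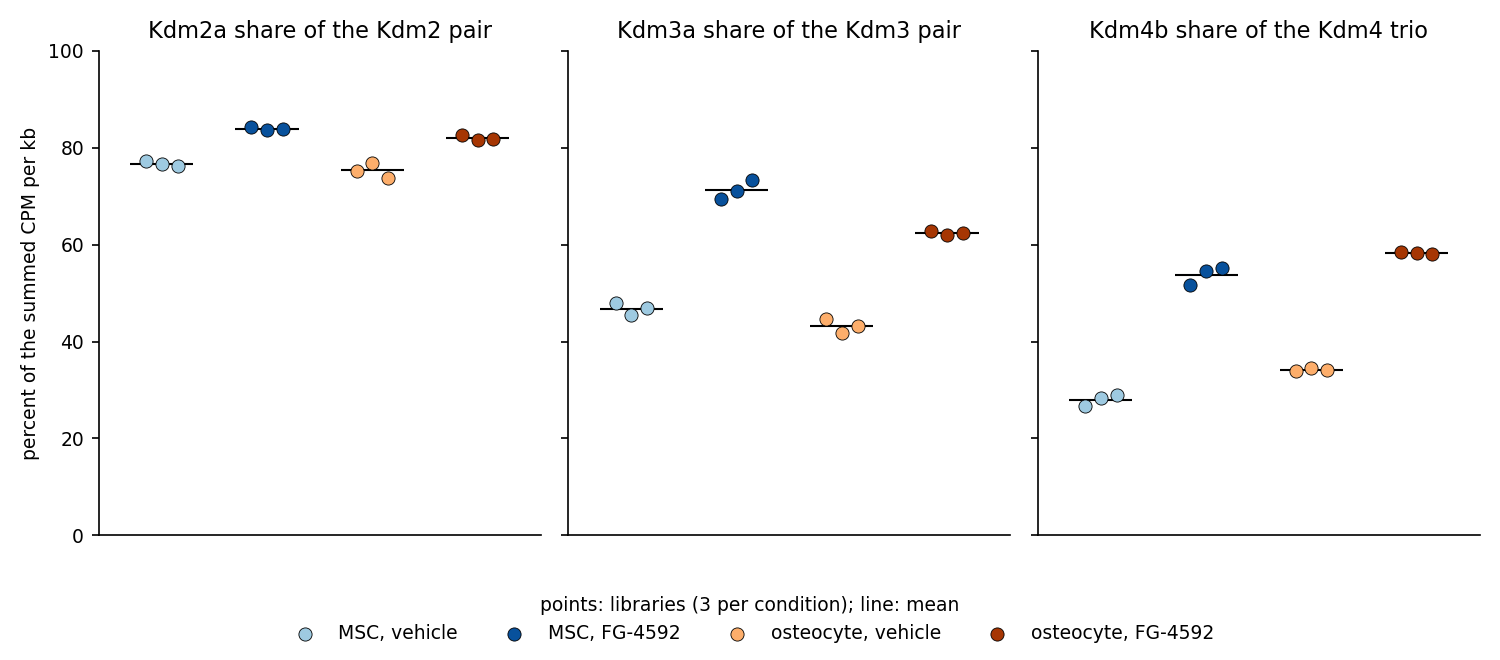
Share, in percent, of Kdm2a, Kdm3a and Kdm4b in the summed CPM per kb of the listed members of each subfamily. The sums hold Kdm2a with Kdm2b, Kdm3a with Kdm3b, and Kdm4a with Kdm4b and Kdm4c. Points are libraries and the line is the mean of 3. In MSCs the mean went from 46.8% to 71.3% for Kdm3a, from 28.0% to 53.8% for Kdm4b and from 76.7% to 83.9% for Kdm2a with FG-4592. In osteocytes it went from 43.2% to 62.4%, from 34.2% to 58.2% and from 75.3% to 82.0%, and for all 3 genes the vehicle and FG-4592 libraries did not overlap in either cell type.

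The KDM2 pair binds unmethylated CpG islands through a CXXC zinc finger, and Kdm2b is known to bring Polycomb repressive complex 1 there. Kdm2a stood at 153.4, 156.1 and 148.5 CPM in vehicle-treated MSCs and at 275.0, 258.1 and 278.7 CPM after FG-4592. In osteocytes it went from 159.6, 170.1 and 152.8 CPM to 311.5, 289.5 and 314.0 CPM. It rose in both cell types without overlap, by 0.83 (SE 0.0528, FDR 3.32e-09) and 0.92 (SE 0.0528, FDR 6.24e-10) on the log2 scale by edgeR's quasi-likelihood test. Kdm2b went from 34.0, 35.9 and 34.9 CPM to 38.8, 38.1 and 40.5 CPM in MSCs, and from 39.7, 38.5 and 40.8 CPM to 48.9, 49.1 and 52.6 CPM in osteocytes. Its treated libraries lay above its vehicle libraries in both, at 0.16 (FDR 0.0286) and 0.34 (FDR 9.57e-05). The MSC call was lost in 6 of 21 alternatives (FDR 0.0104 to 0.294): it fell to 0.08 with library size alone, and it did not pass without replicate 1 (0.17) or replicate 3 (0.14) of the FG-4592-treated MSCs or replicate 1 of the vehicle-treated MSCs (0.17). Rnf34, which shares bases with Kdm2b, moved the same way by 0.25 (FDR 0.00412) and 0.21 (FDR 0.0111), and its part in the Kdm2b values was not tested.

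Kdm6b, also called JMJD3, removes the repressive H3K27 mark and is known as a quickly induced gene. It stood at 28.3, 32.4 and 33.8 CPM in vehicle-treated MSCs and at 59.0, 57.4 and 51.8 CPM after FG-4592, and it went from 37.7, 45.8 and 40.9 CPM to 53.1, 51.9 and 55.0 CPM in osteocytes. The treated libraries were higher in both cell types without overlap and reached a like level in both. The log2 fold change was 0.83 (SE 0.0802, FDR 4.49e-07) in MSCs and 0.36 (SE 0.0794, FDR 0.00137) in osteocytes. Kdm5b, which removes the H3K4 mark of active promoters, stood at 89.3, 98.7 and 95.4 CPM in vehicle-treated MSCs and at 94.5, 92.4 and 93.6 CPM after FG-4592, within the same range, with an interval of -0.12 to 0.09 for the log2 fold change. In osteocytes Kdm5b went from 113.7, 111.4 and 103.9 CPM to 137.3, 134.6 and 137.0 CPM without overlap, at 0.31 (SE 0.0490, FDR 6.54e-05 by edgeR's quasi-likelihood test). Kdm7a was called in neither cell type, at -0.10 (95% interval -0.23 to 0.04) in MSCs and -0.10 (-0.24 to 0.03) in osteocytes. Leaving out 1 library moved these values between -0.15 and -0.05 in MSCs and between -0.16 and -0.05 in osteocytes, without a call. With library size alone, which moved the median of all genes from -0.05 to -0.13 in MSCs and from 0.00 to -0.10 in osteocytes, Kdm7a passed as lower in both, at -0.18 (FDR 0.0294) and -0.20 (FDR 0.0142). That scaling also moved the split of all calls from 2904 higher and 3369 lower to 2260 and 4654 in MSCs, and from 3609 and 3619 to 2806 and 4800 in osteocytes.

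**Figure D4:**
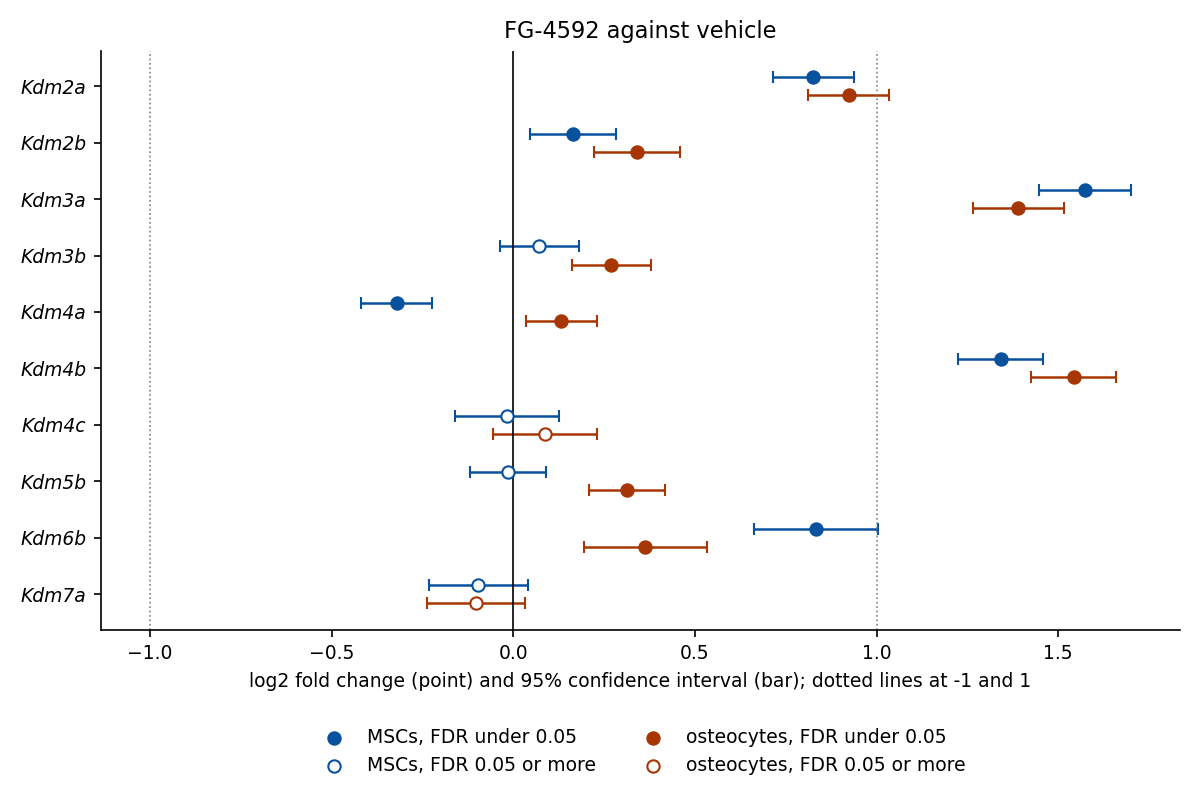
Log2 fold change of FG-4592 against vehicle for each member in MSCs and in osteocytes (points) with its 95% confidence interval (bars), where filled points are called at an FDR under 0.05. Kdm3a and Kdm4b lie beyond 1 in both cell types, and Kdm4a lies below 0 in MSCs at -0.32 and above 0 in osteocytes at 0.13.

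The next question was whether the response to FG-4592 itself differed between the cell types, tested as a contrast of the 2 responses. It differed for 3 of the 10 members. It was higher in osteocytes for Kdm4a and Kdm5b, where 13.3% of all genes were higher, and lower in osteocytes for Kdm6b, where 11.0% were lower. Among 10 members, these counts lie near the shares of all genes. The difference between the responses was 0.45 for Kdm4a (SE 0.0653, FDR 9.93e-05), 0.33 for Kdm5b (SE 0.0694, FDR 0.00247) and -0.47 for Kdm6b (SE 0.113, FDR 0.00596) on the log2 scale by edgeR's quasi-likelihood test, and each kept its call in all 20 alternatives. The count of members past an absolute log2 difference of 1 as well was 0 by edgeR, at an unadjusted p under 0.05 and by DESeq2, where 5.01% of all genes passed. For Kdm3a and Kdm4b, the members that moved most, the difference was -0.18 (95% interval -0.36 to -0.01, FDR 0.124) and 0.20 (0.04 to 0.36, FDR 0.0703), which missed the threshold. With all libraries the difference was 0.20 for Kdm3b (FDR 0.0575). These values moved with single libraries. With 1 library left out in turn the difference of Kdm3a ran from -0.26 (FDR 0.0446, past the threshold, without replicate 3 of the vehicle-treated MSCs) to -0.12 (FDR 0.303, without replicate 3 of the FG-4592-treated MSCs). That of Kdm3b ran from 0.12 (FDR 0.294, without replicate 3 of the vehicle-treated MSCs) to 0.24 (FDR 0.0335, past the threshold, without replicate 1 of the FG-4592-treated MSCs). That of Kdm4b ran from 0.11 (FDR 0.38, without replicate 3 of the vehicle-treated MSCs) to 0.23 (FDR 0.0556) and did not pass. Kdm2a differed by 0.10 (-0.06 to 0.25; 0.03 to 0.13 with 1 library left out) and Kdm7a by -0.01 (-0.20 to 0.19), both with an FDR above the threshold.

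Differentiation was compared next, first in vehicle. Of the 10 members 5 were higher in osteocytes than in MSCs, where 26.0% of all genes were higher, and 2 were lower, where 24.9% were lower. The median log2 fold change of the members was 0.13, against -0.01 over all genes. Kdm7a, which removes the repressive dimethyl marks on H3K9 and H3K27, made the largest move: it stood at 68.4, 68.7 and 62.9 CPM in MSCs and at 141.1, 128.3 and 118.6 CPM in osteocytes. All osteocyte libraries lay well above all MSC libraries, at 0.96 (SE 0.0646, FDR 3.66e-09). No member passed an absolute log2 fold change of 1 together with the FDR, by edgeR's quasi-likelihood test, at an unadjusted p under 0.05 or by DESeq2, where 15.9% of all genes did, but Kdm7a lay so near it that it passed without replicate 3 of the vehicle-treated osteocytes (1.02) and without replicate 1 (1.01) or replicate 2 (1.02) of the vehicle-treated MSCs. Kdm6b was higher by 0.40 (SE 0.0803, FDR 0.000612) and Kdm5b by 0.22 (SE 0.0492, FDR 0.00164), both without overlap. Kdm2b and Kdm4b were each higher by 0.18 (FDR 0.0122 and 0.0128), and Kdm4b lost its call with library size alone (0.14, FDR 0.0566) and Kdm2b without a filter on low counts (0.16, FDR 0.116).

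Kdm4a and Kdm3a were the members that fell with differentiation in vehicle. Kdm4a, whose values are given above, fell by 0.35 (SE 0.0462, FDR 9.12e-06) and Kdm3a by 0.27 (SE 0.0592, FDR 0.00130) on the log2 scale by edgeR's quasi-likelihood test. For each, the 3 osteocyte libraries lay below the 3 MSC libraries. Kdm2a, Kdm3b and Kdm4c did not pass, with log2 fold changes of 0.08 (-0.04 to 0.19), -0.06 (-0.17 to 0.05) and 0.06 (-0.09 to 0.20) and overlapping libraries. With 1 library left out they ran from 0.06 to 0.13, from -0.07 to 0.004 and from 0.02 to 0.15, and none passed. In all, 7 members had vehicle libraries of the 2 cell types that did not overlap, as did 56.9% of all genes.

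In FG-4592, 6 members were higher in osteocytes, where 30.5% of all genes were higher, and 1 was lower, where 25.3% were. Kdm7a was again the member that moved most, from 66.6, 61.4 and 59.0 CPM in treated MSCs to 122.9, 119.7 and 118.8 CPM in treated osteocytes, at 0.95 (SE 0.0646, FDR 2.97e-09). The count past an absolute log2 fold change of 1 was again 0 by edgeR's quasi-likelihood test, at an unadjusted p under 0.05 and by DESeq2, where 18.3% of all genes passed; without replicate 1 of the FG-4592-treated MSCs Kdm7a passed at 1.00. Kdm5b was higher by 0.54 (FDR 9.75e-08), Kdm4b by 0.38 (FDR 1.59e-05) and Kdm2b by 0.36 (FDR 3.88e-05). Kdm2a, higher by 0.17 (FDR 0.0104), lost its call without replicate 2 of the FG-4592-treated MSCs (0.14) and with library size alone (0.12), and Kdm3b, higher by 0.14 (FDR 0.0305), lost it in 10 of 21 alternatives (FDR 0.0147 to 0.159), DESeq2 (0.12) and the removal of replicates 1 (0.15) or 3 (0.14) of the treated osteocytes, 2 (0.11) or 3 (0.12) of the treated MSCs, or 2 of the vehicle-treated MSCs (0.13) among them. Kdm3a was lower by 0.45 (SE 0.0575, FDR 5.22e-06), in every osteocyte library. Kdm6b, which was higher in vehicle-treated osteocytes, had overlapping libraries in FG-4592, at -0.07 (-0.24 to 0.10). With 1 library left out that value ran from -0.13 to -0.035. Kdm4a at 0.10 (FDR 0.0714) and Kdm4c at 0.16 (FDR 0.0511) missed the threshold by little: Kdm4a passed without replicate 2 of the treated osteocytes (0.14, FDR 0.0251), and Kdm4c without replicate 2 (0.15, FDR 0.0489) or 3 (0.16, FDR 0.0458) of the vehicle-treated osteocytes or replicate 2 of the treated MSCs (0.20, FDR 0.0365). The median of the members was 0.17, against 0.03 over all genes, and 8 members did not overlap, as did 64.1% of all genes.

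**Figure D5:**
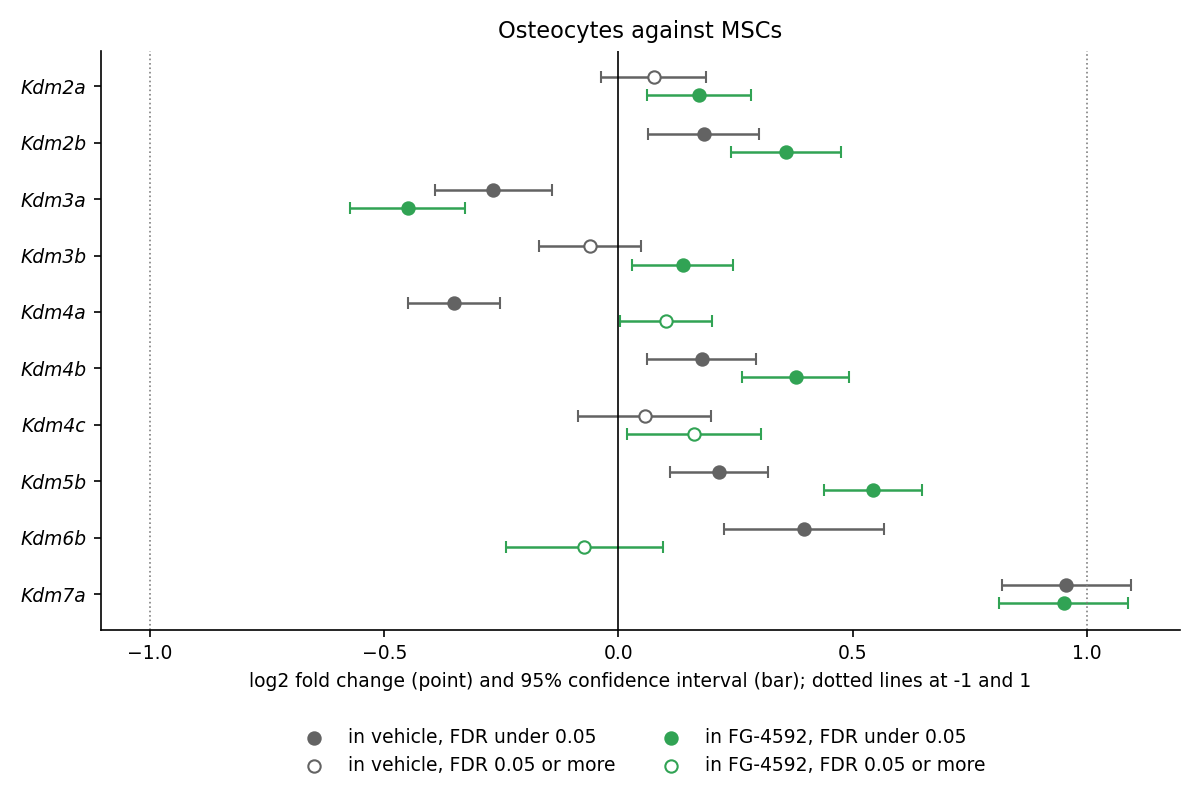
Log2 fold change of osteocytes against MSCs for each member, in vehicle and in FG-4592 (points), with its 95% confidence interval (bars), where filled points are called at an FDR under 0.05. Kdm7a lies near 1 in both treatments (0.96 and 0.95), and Kdm3a lies below 0 in both (-0.27 and -0.45).

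Markers of other cell types moved with differentiation in the same libraries. The summed level of 5 adipocyte markers was 11.1 to 12.4 CPM in vehicle-treated MSCs and 6.36 to 7.64 CPM in FG-4592-treated MSCs, and it was 1810 to 2540 CPM and 2120 to 2520 CPM in the osteocytes, where 4 of the 5 had over 10 counts in every library. The 4 that were tested all rose with differentiation in both treatments, and Lep was not tested. The summed level of 5 chondrocyte markers was 1.89 to 3.34 CPM in MSCs, 60.0 to 80.3 CPM in vehicle-treated and 252 to 344 CPM in FG-4592-treated osteocytes. This list was split: 3 of the 5 had over 10 counts in every library of vehicle-treated osteocytes and 2 of the 5 in FG-4592-treated ones. Only 3 of the 5 were tested. With differentiation 2 of them were higher in each treatment, and 1 was not called (-0.74 in vehicle and -1.47 in FG-4592). Blood markers summed to at most 20.2 CPM with Hbb-bs at 0 in all libraries, and endothelial markers to at most 3.80 CPM. Some of these markers also moved with FG-4592. In MSCs 1 adipocyte, 2 chondrocyte and 1 blood marker were lower, and 1 chondrocyte and 1 endothelial marker were higher. In osteocytes 1 adipocyte and 2 chondrocyte markers were higher, and 1 chondrocyte and 1 blood marker were lower. The part of such cells in the values of Kdm7a, Kdm6b, Kdm5b, Kdm3a and the other members was not tested.

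Across the 4 conditions the members had different orders of level. Kdm7a was high in both osteocyte conditions (118.6 to 141.1 CPM) and low in both MSC conditions (59.0 to 68.7 CPM), and its vehicle and FG-4592 libraries overlapped within each cell type. Kdm4b and Kdm2a had both FG-4592 conditions above both vehicle conditions, with treated osteocytes highest and without overlap between neighbouring conditions, except between vehicle-treated MSCs and osteocytes for Kdm2a. Kdm3a had the same split by treatment but with MSCs above osteocytes, and no neighbouring conditions overlapped. Kdm4a was highest in vehicle-treated MSCs (109.9 to 113.9 CPM), and the other 3 conditions overlapped with their neighbours between 85.6 and 98.2 CPM. Kdm5b was highest in treated osteocytes (134.6 to 137.3 CPM), next in vehicle-treated osteocytes and lowest in the MSC conditions, which overlapped. Kdm6b was lowest in vehicle-treated MSCs and next in vehicle-treated osteocytes, and its FG-4592 libraries of both cell types overlapped between 51.8 and 59.0 CPM. Kdm2b and Kdm3b were highest in treated osteocytes (48.9 to 52.6 and 113.0 to 114.0 CPM), with overlap between vehicle-treated osteocytes and treated MSCs for Kdm2b and, for Kdm3b, of vehicle-treated MSCs with each of vehicle-treated osteocytes and treated MSCs. Kdm4c had no pair of neighbouring conditions apart, from 34.3 to 41.1 CPM over all 12 libraries.

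Other genes of the same domain and the enzymes that write the marks give the setting. Of 21 other JmjC-domain genes 20 were tested, and FG-4592 raised 9 and lowered 1 in MSCs (median 0.06) and raised 8 and lowered 1 in osteocytes (median 0.22). Of all genes, 17.6% rose and 20.4% fell in MSCs, and 21.9% rose and 22.0% fell in osteocytes. Jmjd6, a JmjC-domain hydroxylase, went from 21.2 to 91.4 CPM in MSCs (log2 fold change 2.11, SE 0.0540, FDR 4.02e-14) and from 23.5 to 83.6 CPM in osteocytes (1.83, SE 0.0534, FDR 1.32e-13) by edgeR's quasi-likelihood test, larger estimates than those of Kdm3a or Kdm4b. Hr, an H3K9 demethylase known from hair follicles, went from 2.01 to 13.6 CPM in MSCs (2.75), and Kdm5a, the paralogue of Kdm5b, rose by 0.56 in osteocytes (SE 0.0501, FDR 1.49e-07). With differentiation 10 of the 20 were higher and 1 was lower in vehicle, where 26.0% of all genes were higher and 24.9% lower. In FG-4592, where these shares were 30.5% and 25.3%, 11 of the 20 were higher and 1 was lower. Hr (2.63) and Jmjd8 (1.32) were the 2 that rose most in vehicle, and Jmjd8 (1.07) and Kdm5d (0.80) in FG-4592. The flavin-dependent demethylase Kdm1a, which needs no iron, fell by 0.20 (FDR 0.00288) in MSCs and by 0.14 (FDR 0.0235) in osteocytes with FG-4592.

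Among the enzymes that oppose the members, the 6 H3K4 methyltransferases had 2 genes higher with FG-4592 in MSCs and 5 in osteocytes, led by Kmt2a in osteocytes (0.67, SE 0.0659, FDR 4.00e-07 by edgeR's quasi-likelihood test). The shares of all genes given beside the JmjC-domain genes are the background for these short lists too. The 5 H3K36 methyltransferases write on the lysine that Kdm2a and Kdm4b act on. Of these, 1 was higher in MSCs (Ash1l, 0.29), and 3 were higher and 1 lower in osteocytes (Ash1l 0.44 and Setd2 0.25 the largest). The 5 H3K9 methyltransferases write on the lysine that Kdm3a acts on. Of these, 1 was lower in MSCs (Suv39h1, -0.20) and 1 was lower in osteocytes (Suv39h1, -0.23). In osteocytes 1 was higher by edgeR's quasi-likelihood test (Ehmt2, 0.13, FDR 0.0497), and DESeq2 called 0 of the 5 higher. In the 4-gene list of the Polycomb complex that writes the H3K27 mark of Kdm6b, 2 genes were higher and 1 lower in each cell type: Ezh2 fell by 0.36 (FDR 0.000954) in MSCs and by 0.59 (FDR 6.75e-06) in osteocytes, while Suz12 rose by 0.47 in MSCs and Ezh1 by 0.66 in osteocytes. With differentiation in vehicle, 3 of the 6 H3K4 methyltransferases were higher (Kmt2c 0.64 and Setd1b 0.32 among them) and 2 of the 5 H3K36 methyltransferases (Nsd1 0.49 and Nsd3 0.38), and in both lists the count of lower genes was 0 by edgeR's quasi-likelihood test, at an unadjusted p under 0.05 and by DESeq2. In the same comparison 2 of the 4 Polycomb genes fell (Ezh2 by 0.46 and Suz12 by 0.42) and 1 rose (Ezh1, 0.18, named after its value was seen), while 3 of the 5 H3K9 methyltransferases fell, Ehmt2 by 0.49 and Suv39h1 by 0.44 among them.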

How the data were processed

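The 12 mRNA libraries of MPC2 cells were read from both ends, 100 bases each. The authors aligned the reads to mm10 with STAR 2.7.2a, counted them on Gencode M22 genes with featureCounts (Subread 1.6.2) and deposited raw counts per gene, without normalization. Groups came from the labelled cell type and treatment; no batch is labelled. The members and lists were chosen with earlier results of these data known.

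From the counts, the 16484 of 56350 genes that passed the count filter (over 10 counts, 3 or more libraries) were fitted in edgeR 4.0.16 (R 4.3.3) with TMM factors (0.9474 to 1.057), 1 term for each condition over all 12 libraries, the quasi-likelihood test and Benjamini-Hochberg adjustment across the table. The SE is the log2 fold change over the square root of F. The study's methods name edgeR, the filter and the cutoffs but not the test within it. The fit was tested on simulated data. All 10 members were named. From each list of other demethylases and methyltransferases, at most the 2 genes with the largest called change and a mean of 100 counts or more in their highest condition were named for each comparison of 2 conditions.

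Alternatives changed the test (likelihood ratio, DESeq2 1.42.0), the scaling (library size alone, upper-quartile or RLE factors), the filter (none, filterByExpr) or the fit (a replicate block, the compared libraries only, each library left out). No 2 libraries of a condition were identical, and each pair differed by more than sampling noise. Near-identical stretches came from blastn 2.17.0 on the Gencode M21 transcripts. Figures were drawn in Python 3.11.15.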

Additional observations from a re-analysis of the deposited data

Results flagged for a closer look

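The responses of 3 members to FG-4592 differed between the cell types in a test of the difference itself, edgeR's quasi-likelihood test of the response in osteocytes minus that in MSCs with Benjamini-Hochberg adjustment over 16484 genes. For Kdm4a the difference was 0.4531 on the log2 scale (FDR 9.93e-05): the gene went from a mean of 111.8 to 89.5 CPM in MSCs and from 87.7 to 96.1 CPM in osteocytes. For Kdm5b it was 0.3281 (FDR 0.00247), from 94.5 to 93.5 CPM and from 109.7 to 136.3 CPM. For Kdm6b it was -0.469 (FDR 0.00596), from 31.5 to 56.1 CPM and from 41.5 to 53.3 CPM. In the FG-4592 conditions Kdm4a and Kdm6b had overlapping libraries between the cell types, and Kdm5b did not. Over all genes, 13.3% had a higher and 11.0% a lower response in osteocytes, and the counts among the 10 members lie near these shares.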

How the results depend on the processing

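Of the 50 pairs of a member and a comparison, 32 kept their direction and their side of the threshold in all 20 or 21 alternatives, 12 had a changed call in at least 1, and 6 had a change of sign, always of a value that was not called. With library size alone, 2 members fell with FG-4592 in MSCs in place of 1 and 1 fell in osteocytes in place of 0, Kdm7a in each; Kdm3b in MSCs turned to -0.0144 and Kdm4c in osteocytes to -0.0106. With only the libraries compared, Kdm4c and Kdm5b in MSCs turned to 0.0111 and 0.0147. Without a filter, the response difference of Kdm7a turned to 0.0088. With 1 library left out, Kdm4c in MSCs ran from -0.0577 to 0.0555, Kdm5b in MSCs from -0.0275 to 0.0467, Kdm3b with differentiation in vehicle from -0.0737 to 0.0044 and the response difference of Kdm7a from -0.0741 to 0.0444. The members past both cutoffs then numbered 0 to 1 with differentiation in vehicle and 0 to 1 in FG-4592, and 1 to 2 members had a lower response in osteocytes. The replicate numbers of the labels did not pair the libraries (correlations of same-numbered deviations from -0.053 to 0.054 over 12 pairs). With the replicate block 5 members rose and 1 fell in MSCs, 8 rose in osteocytes, and no member's call changed. A member had at least 1557 counts in a library, and the SEs ran from 0.0461 to 0.113 on the log2 scale. The parts of counting error and of the spread between libraries in these SEs were not tested.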
